A study of Mus musculus with 6 samples.

Results

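The genes described here are 10 markers of macrophages and other myeloid cells, Lyz2, Csf1r, Adgre1, Itgam, Cd68, Fcer1g, Tyrobp, Cst3, S100a8 and S100a9, measured in RNA of sorted splenic CD4+ T cells. They were chosen by name as genes that T cells are not known for, out of 45777 genes in the tables, and all 10 passed edgeR's filter on low counts, which left 16123 genes. RNA was sequenced in bulk from CD4+Lrig1+ and CD4+Lrig1- T cells, which were sorted by flow cytometry from the spleens of female C57BL/6 mice (an inbred strain) at 7 weeks of age. Neither group carried a transgene or received a treatment according to the labels, and the labels do not say whether spleens were pooled. The labels list 3 samples per group. The libraries analysed here are 2 of each group, and each of 2 tables pairs 1 library of one group with 1 of the other (set 1 and set 2), and 2 further libraries, whose column names do not give the group, were not used here.

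Bulk RNA of a sort holds what every cell that passed the gate contributed, together with free RNA. Csf1r is the receptor for CSF1 and keeps most tissue macrophages alive. The red pulp of the spleen is rich in macrophages that take up aged red cells and recycle their iron, and the spleen also holds monocytes, neutrophils and dendritic cells. Some mouse dendritic cells carry CD4 on their surface, and natural killer (NK) cells share several of the myeloid genes. Fcer1g and Tyrobp encode small membrane adaptors with an activation motif (ITAM) that pass on signals from Fc receptors and from many myeloid and NK cell receptors. S100a8 and S100a9 encode the subunits of calprotectin, an abundant protein of the neutrophil cytoplasm.

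The libraries held from 44865070 to 59977951 estimated counts. Foxp3, the master regulator of regulatory T cells, stood at 589 and 615 CPM (counts scaled to library sizes that were adjusted by the TMM method) in the CD4+Lrig1+ libraries of sets 1 and 2 and at 48.9 and 30.7 in the CD4+Lrig1- libraries. Lrig1 itself stood at 221 and 129 against 75.4 and 36.7 CPM. The 12 T cell markers, Cd3e and Cd4 among them, summed to between 5472 and 8087 CPM per library. The 10 myeloid genes summed to between 70.3 and 346 CPM. In bulk samples, fewer cells of a type and less RNA per cell cannot be told apart.

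The myeloid genes were present in all 4 libraries, and their sum differed far more between the sets than between the groups. The sum was 70.3 CPM in the CD4+Lrig1+ and 73.0 in the CD4+Lrig1- library of set 1, and 299 and 346 CPM in set 2. Within set 1 the ratio of CD4+Lrig1+ over CD4+Lrig1- was 0.963 (95% exact binomial interval 0.919 to 1.01), and within set 2 it was 0.864 (0.846 to 0.882). Between the sets it was 4.25-fold higher in set 2 for CD4+Lrig1+ and 4.74-fold higher for CD4+Lrig1-. These intervals, and those of the ratios of single genes, cover counting error only, since each set holds 1 library per group and the reads are not independent molecules. Under this sum, single genes went opposite ways. Csf1r was about as much higher in CD4+Lrig1+ T cells in one set as in the other, Itgam, Tyrobp, Fcer1g and S100a8 were lower in both, and Lyz2, Adgre1, Cd68, Cst3 and S100a9 lay on different sides of 1 in the 2 sets.

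**Figure D1:**
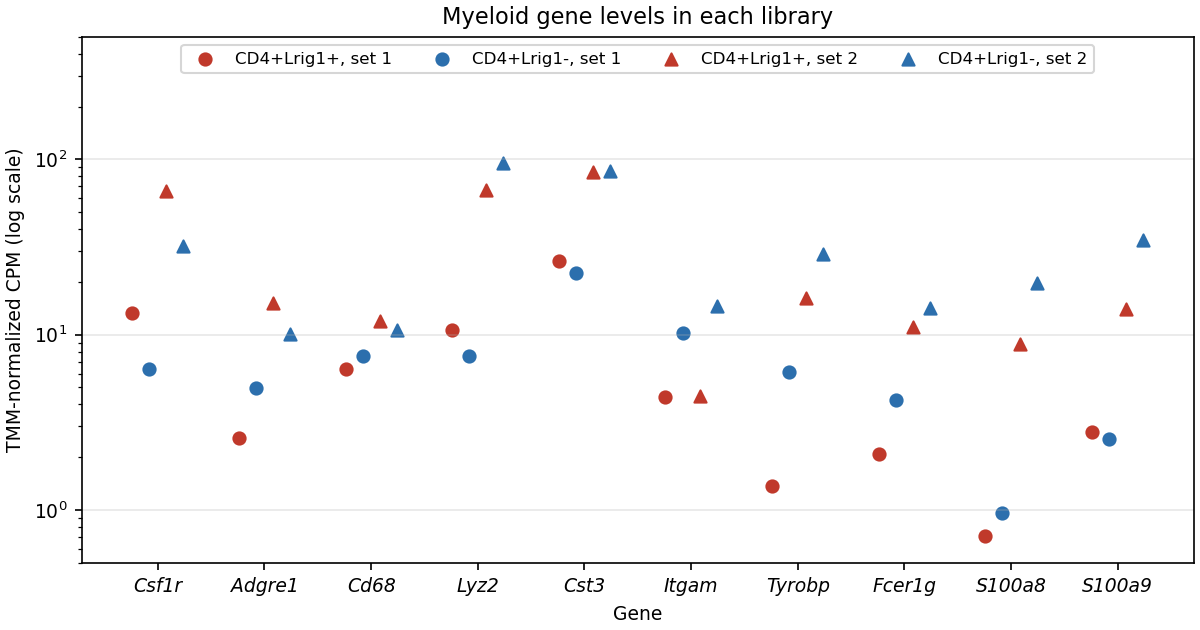
TMM-normalized CPM (log axis) of the 10 myeloid genes, with 1 point per library, colour for the group and shape for the set. Itgam is the gene whose groups do not overlap, with 4.38 and 4.46 CPM in CD4+Lrig1+ against 10.2 and 14.6 in CD4+Lrig1- T cells, and for S100a8 the set 2 points (8.79 and 19.8) lie far above those of set 1 (0.711 and 0.961).

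Per transcript length, Cst3 (cystatin C, a secreted inhibitor of cysteine proteases that dendritic cells and macrophages make in quantity) was the most abundant of the 10 in every library, at 31.6 and 27.1 FPKM (fragments scaled to transcript length and to the mapped fragments of the library) for CD4+Lrig1+ and CD4+Lrig1- in set 1 and 96.3 and 90.6 in set 2. Lyz2 (lysozyme M) came second in 3 libraries, and in the CD4+Lrig1- library of set 1 Tyrobp did, at 10.2 FPKM. Averaged over the 4 libraries the order was Cst3 (61.4 FPKM), Lyz2 (37.4), S100a9 (22.3), Tyrobp (20.1), S100a8 (16.7), Fcer1g (10.6), Csf1r (6.81), Cd68 (6.66), Adgre1 (2.28) and Itgam (1.62). The ranges of neighbours in this order overlapped over the libraries, except those of Cd68 (4.92 to 8.66 FPKM) and Adgre1 (0.763 to 4.25). In the CD4+Lrig1- library of set 2 the calprotectin genes S100a9 (55.6 FPKM) and S100a8 (42.5) stood next after Cst3 and Lyz2, whereas in the CD4+Lrig1- library of set 1 they stood below Cd68, at 4.64 and 2.34 FPKM.

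To compare the groups, edgeR's quasi-likelihood test was run on all 16123 genes with Benjamini-Hochberg adjustment. Without a term for the set, 0 of the 10 genes and 0 genes overall passed an adjusted p of 0.05 in either direction (0% of the genes tested were called higher and 0% lower). The smallest adjusted p of any gene was 0.501, 674 genes were higher and 227 lower at an unadjusted p under 0.05 (Itgam was the 1 myeloid gene among them, on the lower side), and the Wald test of DESeq2 called 260 genes higher and 50 lower, none of them a myeloid gene. With the set of each library as a term (the table block), edgeR's test called 1 of the 10 genes higher, Csf1r, where 14.6% of all genes were called higher, and 4 of 10 lower, Itgam, Tyrobp, S100a8 and Fcer1g, where 12.8% of all genes were called lower. This second test compares the groups inside each set and has 1 residual degree of freedom, so that its error is borrowed largely from other genes. The median log2 fold change of the 10 genes was -0.45 without the block, against -0.040 for all genes tested, and -0.37 with it, against -0.036. With 2 libraries against 2, permuting the labels of one gene exactly gives a p of 0.333 at the least.

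Counting directions alone, 1 of the 10 genes had a log2 ratio above 0 in both sets (36.5% of all genes tested), 4 had one below 0 in both (41.3% of all genes) and 5 pointed opposite ways. By size, 1 of the 10 (Csf1r) was at least 2-fold higher in both sets, as were 7.37% of all genes, and 1 (Itgam) was at least 2-fold lower in both, as were 3.01%. Groups that did not overlap over the 4 libraries were found on the lower side for 1 of the 10 (11.8% of all genes) and on the higher side for 0 of the 10 (14.3%). The counts of direction lie at or under the shares of all genes, whereas the count called lower under the table block and both counts of at least 2-fold lie above them, the last 2 by a single gene each.

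**Figure D2:**
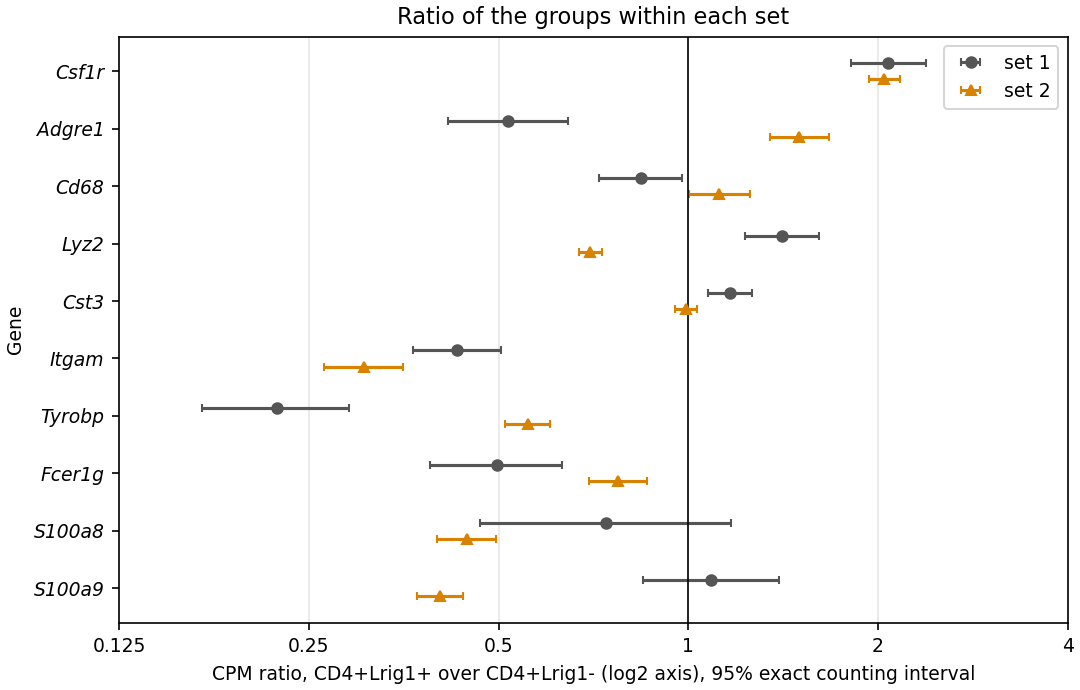
Ratio of normalized CPM of CD4+Lrig1+ over CD4+Lrig1- T cells (log2 axis) for the 10 myeloid genes in set 1 (circles) and set 2 (triangles), with 95% exact intervals of counting error. Csf1r lies at 2.07 and 2.05, Itgam, Tyrobp and Fcer1g lie left of 1 in both sets, and Adgre1 and Lyz2 lie on opposite sides of 1 with intervals that do not reach it.

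Csf1r, the CSF1 receptor of macrophages and monocytes (gene ID 12978), stood at 13.2 CPM in the CD4+Lrig1+ and 6.39 in the CD4+Lrig1- library of set 1, and at 65.9 and 32.2 CPM in set 2. Both CD4+Lrig1+ libraries were above the CD4+Lrig1- library of their own set, although the groups overlapped over the sets. The ratio was 2.07 (95% exact interval 1.81 to 2.38) in set 1 and 2.05 (1.93 to 2.17) in set 2. The log2 fold change was 1.04 in both fits, with an SE of 1.15 and an adjusted p of 0.9998 in edgeR's test without the block and an SE of 0.0917 and an adjusted p of 2.60e-04 with it. With the block, the Wald test of DESeq2 (adjusted p = 1.48e-10) and limma on log2(FPKM + 1) (adjusted p = 0.0259) also called it higher. The table holds 1 Csf1r transcript, and the gene's span overlaps those of Gm52352 and Mir6983.

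Of the other genes around the receptor, its ligand Csf1 was itself higher in CD4+Lrig1+ T cells, at 37.2 and 40.7 CPM in sets 1 and 2 against 3.43 and 4.13 in CD4+Lrig1- T cells. The groups did not overlap for Csf1 and its level hardly differed between the sets, unlike that of the receptor. Its log2 fold change was 3.36 (edgeR's test, adjusted p = 0.501 without the block and 4.80e-06 with it), and DESeq2's Wald test called it without the block (adjusted p = 2.88e-09). Il34, the other ligand, had 0 counts in every library. Among the other receptors of colony-stimulating factors, Csf2rb, the chain shared by the GM-CSF and IL-3 receptors, and Csf2rb2, the mouse chain of the IL-3 receptor alone, were lower in CD4+Lrig1+ T cells with the table block (log2 fold changes of -1.82 and -2.33, edgeR's adjusted p = 0.00207 and 3.76e-04). In all, 1 of the 6 other genes of that list that were tested was called higher with the block and 3 lower.

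A list of 36 macrophage and monocyte markers held 29 tested genes beside the myeloid genes described here. Of these, 21 were higher in both sets and 7 lower in both, and the table block gave 16 calls on the higher side and 4 on the lower. Their median log2 ratio was 1.38 in set 1 and 0.98 in set 2, against 0.01 and -0.06 for all genes tested. Without the block, edgeR's test called 0 of the 29 (1 was higher and 1 lower at an unadjusted p under 0.05) and DESeq2's Wald test called 1 higher and 1 lower. On the higher side stood C1qa, a chain of complement C1q made by tissue macrophages, with 3.81 and 33.8 CPM in CD4+Lrig1+ against 0.564 and 8.79 in CD4+Lrig1- T cells (sets 1 and 2), and Mrc1, the mannose receptor, with 5.38 and 18.9 against 0.564 and 8.41 CPM. Hmox1, which degrades haem, stood at 14.02 and 54.5 against 3.70 and 20.1 CPM, and Axl, a receptor for apoptotic cells, at 56.2 and 98.0 against 7.06 and 19.98 CPM. With the block their log2 fold changes were 2.18, 1.88, 1.64 and 2.62 (edgeR's adjusted p = 2.48e-04, 0.0114, 1.87e-04 and 5.45e-05). On the lower side stood Ly6c2, the Ly6C antigen of inflammatory monocytes that some T cells also carry, with 7.81 and 21.7 against 20.01 and 74.3 CPM, and Cx3cr1, the fractalkine receptor, with 0.423 and 2.32 against 2.15 and 8.87 CPM (log2 fold changes of -1.58 and -2.09 with the block, edgeR's adjusted p = 1.46e-04 and 9.07e-04). The liver macrophage gene Clec4f had 0 counts in every library. Some genes of the list, Axl, Hmox1 and Nr4a1 among them, are also expressed by activated T cells, and how much of each came from T cells was not tested.

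Adgre1, which encodes a classical surface antigen of mouse macrophages (gene ID 13733), did not follow Csf1r. It stood at 2.58 CPM in the CD4+Lrig1+ and 4.97 in the CD4+Lrig1- library of set 1, and at 15.2 and 10.1 CPM in set 2. The ratio was 0.518 (95% exact interval 0.416 to 0.643) in set 1 and 1.501 (1.35 to 1.67) in set 2, so that the sets went opposite ways by more than counting error. Cd68, a glycoprotein of the macrophage lysosome (gene ID 12514), went the same way on a smaller scale, with 6.38 against 7.60 CPM in set 1 and 11.9 against 10.6 in set 2, at ratios of 0.840 (0.722 to 0.977) and 1.12 (1.00 to 1.25). The edgeR test called neither with the table block (log2 fold changes of -0.093 and -0.035, adjusted p = 0.868 and 0.894) nor without it. In the CD4+Lrig1- library of set 2, 83.7% of the Adgre1 counts were assigned to the main transcript, against at least 96.4% in the other libraries, and the gene's span overlaps those of Gm18069 and Gm20243.

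Of the 6 other adhesion receptors of the Adgre1 family that were tested, 1 was called higher and 2 lower with the block. Adgrg5 was among the latter, with 3.85 and 1.22 CPM in CD4+Lrig1+ against 18.3 and 7.39 in CD4+Lrig1- T cells.

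Lyz2, the lysozyme of macrophages and granulocytes (gene ID 17105), and Cst3 (gene ID 13010) were the most abundant members and did not separate the groups. Lyz2 stood at 10.6 CPM in the CD4+Lrig1+ and 7.52 in the CD4+Lrig1- library of set 1, and at 66.7 and 95.5 CPM in set 2. The ratio was 1.41 (95% exact interval 1.23 to 1.61) in set 1 and 0.698 (0.670 to 0.728) in set 2. Cst3 stood at 26.2 against 22.5 CPM in set 1 and at 84.8 against 85.5 in set 2, with ratios of 1.16 (1.07 to 1.26) and 0.993 (0.953 to 1.03). With the table block edgeR gave log2 fold changes of -0.087 for Lyz2 (adjusted p = 0.801) and 0.10 for Cst3 (adjusted p = 0.462). Among the 21 other lysosomal enzymes and cystatins, all tested, 6 were called higher and 6 lower with the block. Cst7, an inhibitor of the same family as Cst3 that is made by lymphocytes, was higher, at 62.5 and 139 CPM in CD4+Lrig1+ against 8.23 and 20.2 in CD4+Lrig1- T cells (log2 fold change 2.85, edgeR's adjusted p = 4.80e-06 with the block). Npc2, a lysosomal cholesterol carrier, was lower, at 201 and 435 against 298 and 823 CPM (-0.74, adjusted p = 0.00258).

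Of the 4 genes called lower with the block, Itgam, Fcer1g and S100a8 are shown with the letters before their start sites, together with S100a9, which was not called, because 2 of the myeloid factors of the spleen, PU.1 and C/EBP, read short motifs that a script can find there. A promoter sequence was matched for 7 of the 10 genes, not for Csf1r, Adgre1 and Tyrobp. The PU.1 box GAGGAA was searched on both strands (TTCCTC on the other) in the 250 bases before the start, and so was the C/EBP motif TTGCNNAA. The letters are those of RefSeq on GRCm38.p6, read 5′ to 3′ towards the gene, with both motifs in capitals. Itgam and S100a8 each hold the PU.1 box at 2 places, Fcer1g holds neither motif, and S100a9, the neighbour and partner of S100a8, holds the C/EBP motif.
Itgam (chr7:128062390-128062639, plus strand): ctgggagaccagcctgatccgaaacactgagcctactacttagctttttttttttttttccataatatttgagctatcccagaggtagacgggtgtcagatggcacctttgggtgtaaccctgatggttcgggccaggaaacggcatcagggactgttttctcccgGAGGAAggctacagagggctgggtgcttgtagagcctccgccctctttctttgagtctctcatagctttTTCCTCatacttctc
Fcer1g (chr1:171234350-171234599, minus strand): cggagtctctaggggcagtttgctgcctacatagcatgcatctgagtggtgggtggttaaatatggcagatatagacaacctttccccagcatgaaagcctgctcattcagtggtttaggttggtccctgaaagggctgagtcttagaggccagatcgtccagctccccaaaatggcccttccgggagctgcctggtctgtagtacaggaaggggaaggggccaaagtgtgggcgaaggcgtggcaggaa
S100a8 (chr3:90668821-90669070, plus strand): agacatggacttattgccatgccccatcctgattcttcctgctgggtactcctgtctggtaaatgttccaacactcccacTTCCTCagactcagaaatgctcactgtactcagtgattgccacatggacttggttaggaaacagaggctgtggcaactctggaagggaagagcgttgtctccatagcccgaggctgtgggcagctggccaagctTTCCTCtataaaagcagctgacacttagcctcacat
S100a9 (chr3:90695722-90695971, minus strand): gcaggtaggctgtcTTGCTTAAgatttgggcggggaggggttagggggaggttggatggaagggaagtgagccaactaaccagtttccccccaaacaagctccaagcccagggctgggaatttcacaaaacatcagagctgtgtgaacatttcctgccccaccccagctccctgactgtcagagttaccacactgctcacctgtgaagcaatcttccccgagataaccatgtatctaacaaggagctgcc
Of the 7 genes, 4 hold the PU.1 box (Itgam, S100a8, Cd68 and Cst3), as do 23.3% of the 32851 promoters in the table, and 2 hold the C/EBP motif (S100a9 and Cd68), as do 9.56%. A match is a run of letters and was not tested as a binding site. Both the genes called lower and those not called are found with and without the PU.1 box. The C/EBP motif is held by S100a9 and Cd68, which were not called, and by none of Itgam, Fcer1g and S100a8. Lyz2 and Cst3, also not called, do not hold it.

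Itgam (gene ID 16409, chromosome 7 of GRCm38 from 128062640 to 128118491), the alpha chain CD11b of the integrin Mac-1 on monocytes, neutrophils and NK cells, was lower in both CD4+Lrig1+ libraries. It stood at 4.38 and 4.46 CPM in CD4+Lrig1+ T cells (mean 4.42 ± 0.0518, SD, n = 2) and at 10.2 and 14.6 in CD4+Lrig1- T cells (12.4 ± 3.11, n = 2). The groups did not overlap, and of the 10 genes it was the one whose level in CD4+Lrig1+ T cells was nearly equal in the 2 sets. It was 2.32-fold lower in CD4+Lrig1+ T cells in set 1 (95% exact interval 1.98 to 2.73) and 3.27-fold lower in set 2 (2.84 to 3.78). The log2 fold change was -1.49 (SE 0.386, unadjusted p = 0.0182 and adjusted p = 0.679 in edgeR's test) without the block and -1.47 (SE 0.165, adjusted p = 7.63e-04) with it. DESeq2's Wald test and limma on log2(FPKM + 1), both with the block, also called it (adjusted p = 1.00e-06 and 0.0279).

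The counts of Itgam were split over 2 transcript variants that differ by 3 bases in length (4682 and 4679). The shorter one had 14 and 63 counts in the CD4+Lrig1+ libraries of sets 1 and 2 and 315 and 439 in the CD4+Lrig1- libraries. The longer one had 214 and 193 counts against 173 and 349. The difference between the groups thus lay mainly in the counts given to the shorter variant, but variants so alike share nearly all their reads and the split between them is uncertain. Of the 6 other beta-2 integrin genes tested, 3 were called higher and 1 lower with the block. The other alpha chains did not move together, since Itgax (CD11c of dendritic cells and some NK cells) stood at 4.42 and 6.27 CPM in CD4+Lrig1+ against 29.5 and 17.4 in CD4+Lrig1- T cells, whereas Itgad (CD11d, of red pulp macrophages) stood at 6.17 and 21.4 against 2.21 and 7.31, and the lymphocyte chain Itgal at 1188 and 1062 against 824 and 737. Their log2 fold changes with the block were -2.09, 1.52 and 0.53 (edgeR's adjusted p = 0.00136, 2.60e-04 and 0.00793). The common beta chain Itgb2 did not pass the test (0.01, adjusted p = 0.945).

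The adaptor Tyrobp (gene ID 22177) stood at 1.37 CPM in the CD4+Lrig1+ and 6.14 in the CD4+Lrig1- library of set 1, and at 16.1 and 28.9 CPM in set 2. It was lower in CD4+Lrig1+ T cells within both sets, 4.50-fold (95% exact interval 3.46 to 5.91) in set 1 and 1.80-fold (1.66 to 1.95) in set 2. The edgeR log2 fold change was -1.005 without the block (SE 1.40, adjusted p = 0.9998) and -1.34 with it (SE 0.265, adjusted p = 0.00953). Fcer1g, the common gamma chain of Fc receptors (gene ID 14127), stood at 2.096 against 4.22 CPM in set 1 and at 11.0 against 14.3 in set 2. It was 2.01-fold lower (1.59 to 2.56) in set 1 and 1.29-fold lower (1.16 to 1.44) in set 2, with a log2 fold change of -0.64 (SE 0.184, edgeR's adjusted p = 0.0383) with the block. The call of Tyrobp was also made by DESeq2's Wald test with the block (adjusted p = 3.72e-04) and not by limma on log2(FPKM + 1), and that of Fcer1g by neither.

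Receptors that pair with these adaptors were counted from a list of 24, of which 20 were tested. Of these, 13 were lower in both sets and 3 higher in both, and 8 were called lower and 1 higher with the block. Klrk1 (NKG2D) stood at 1.79 and 4.42 CPM in CD4+Lrig1+ against 17.3 and 23.0 in CD4+Lrig1- T cells, and Siglech, of plasmacytoid dendritic cells, at 3.77 and 2.54 against 12.6 and 27.0 CPM. Of 12 other genes of signalling from these adaptors, 11 were lower in both sets, and 7 were called lower and 1 higher. Plcg2, the phospholipase of B and myeloid cells, stood at 4.04 and 13.8 against 8.63 and 31.6 CPM (log2 fold change -1.15, edgeR's adjusted p = 3.90e-04 with the block). The 1 gene called higher was Zap70, the kinase of the T cell receptor, at 346 and 358 against 246 and 246 CPM (0.52, adjusted p = 0.00341).

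Markers of other cells that share Itgam, Tyrobp and Fcer1g were mostly lower in CD4+Lrig1+ T cells as well. The 13 NK cell markers, all tested, summed to 63.3 and 141 CPM in CD4+Lrig1+ and 115 and 287 CPM in CD4+Lrig1- T cells, 11 were lower in both sets, and 10 were called lower and 1 higher with the block. Prf1 (perforin) stood at 9.92 and 15.0 against 34.5 and 69.3 CPM, and Klrd1 (CD94) at 2.77 and 5.17 against 12.2 and 25.6. The 15 conventional dendritic cell markers tested beside Cst3 had 12 lower in both sets, with 8 called lower and 1 higher. Flt3, the receptor that dendritic cells depend on, stood at 1.63 and 0.905 against 9.54 and 7.18 CPM. Itgae was the 1 called higher, at 58.1 and 58.0 against 6.68 and 8.05 CPM. The 12 plasmacytoid dendritic cell markers had 8 lower in both sets, with 7 called lower and 1 higher. The lists share genes, Klrk1, Klrd1 and Siglech among them, so their counts are not independent. The part of these cells in the levels of Itgam, Tyrobp and Fcer1g was not tested.

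**Figure D3:**
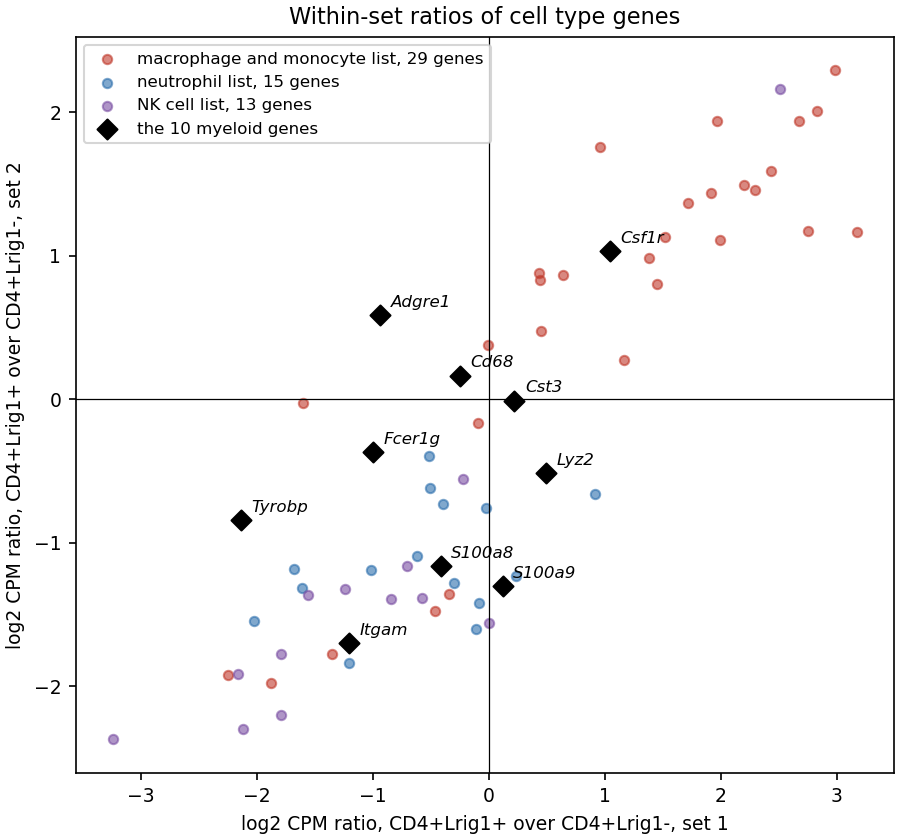
Log2 CPM ratio between the groups, positive where CD4+Lrig1+ is higher, in set 1 (horizontal) and set 2 (vertical) for the 10 myeloid genes (black diamonds) and for the tested genes of the macrophage and monocyte (29), neutrophil (15) and NK cell (13) lists without them. Csf1r lies with the larger group of macrophage genes at the upper right. Itgam lies at the lower left, among NK cell and neutrophil genes and genes of the macrophage and monocyte list such as Ly6c2 and Cx3cr1. Adgre1 and Lyz2 lie in the quadrants where the sets disagree.

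The calprotectin genes S100a8 and S100a9 (gene IDs 20201 and 20202, next to each other on chromosome 3) were low in set 1 and differed between the groups in set 2. S100a8 stood at 0.711 CPM in the CD4+Lrig1+ and 0.961 in the CD4+Lrig1- library of set 1, from 37 and 46 counts, and at 8.79 and 19.8 CPM in set 2, from 505 and 1067 counts. S100a9 stood at 2.77 against 2.55 CPM in set 1 and at 13.96 against 34.5 in set 2. In set 1 neither ratio was distinguishable from 1 at this depth (0.741, 95% exact interval 0.467 to 1.17, and 1.09, 0.848 to 1.39). In set 2 S100a8 was 2.25-fold lower (2.02 to 2.50) and S100a9 2.47-fold lower (2.28 to 2.69) in CD4+Lrig1+ T cells. With the block S100a8 was called lower by edgeR (log2 fold change -0.95, SE 0.205, adjusted p = 0.0137) and by DESeq2's Wald test (adjusted p = 0.0356), and S100a9 was not called (-0.76, SE 0.289, edgeR's adjusted p = 0.0942). Limma on log2(FPKM + 1) with the block called neither S100a8 nor S100a9 (adjusted p = 0.108 and 0.330). The call of S100a8 rests on set 2.

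The neutrophil list held 15 tested genes beside these 2. Of them 13 were lower in both sets and 0 higher in both, and 5 were called lower and 0 higher with the block. The summed level of the list without the calprotectin genes was 12.5 and 34.4 CPM in CD4+Lrig1+ against 26.0 and 83.0 in CD4+Lrig1- T cells. In set 1 this sum followed a few genes. Mmp9, Il1b, Csf3r and G0s2 held 2.35, 1.13, 2.13 and 1.12 of the 12.5 CPM in CD4+Lrig1+ T cells. In CD4+Lrig1- T cells of set 1 they held 9.69, 3.55, 3.30 and 2.63 of the 26.0 CPM. Retnlg stood at 0.385 against 0.418 CPM in set 1. The median log2 ratio of the 15 genes was -0.51 in set 1 and -1.19 in set 2. Mmp9, a protease of neutrophil granules, stood at 2.35 and 5.26 against 9.69 and 15.5 CPM and had non-overlapping groups (log2 fold change -1.78, edgeR's adjusted p = 3.49e-04 with the block). The granule gene Ngp stood at 1.54 against 1.90 CPM in set 1 and at 7.57 against 18.5 in set 2 (log2 fold change -0.91, edgeR's adjusted p = 0.0282 with the block). Of 6 receptors and partners of calprotectin beside the subunits, 2 were called higher and 0 lower. Ager, a receptor of S100 proteins, stood at 12.4 and 14.9 CPM in set 1 and at 0.488 and 0.370 in set 2, the reverse of its ligands.

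Between the sets, 8 of the 10 genes stood at least 2-fold higher in set 2 in both groups. The share of all genes tested with such a step was not counted. S100a8 was 12.4-fold higher in CD4+Lrig1+ and 20.6-fold higher in CD4+Lrig1- T cells, Lyz2 6.31-fold and 12.7-fold, Tyrobp 11.8-fold and 4.71-fold, and Csf1r 4.98-fold and 5.04-fold. Itgam (1.02-fold and 1.43-fold) and Cd68 (1.87-fold and 1.40-fold) were the exceptions. Markers of other non-T cells were not all higher in set 2 to the same degree. The 14 B cell markers summed to 115 and 101 CPM in set 1 and to 474 and 959 in set 2, and the 12 erythroid and platelet markers to 11.7 and 12.4 CPM and to 85.6 and 96.9. The neutrophil markers other than S100a8 and S100a9 were 2.75-fold and 3.19-fold higher in set 2 by their sums (CD4+Lrig1+ and CD4+Lrig1-), and the 13 NK cell markers 2.22-fold and 2.50-fold. The step of the sum was smaller for the other macrophage and monocyte markers (1.63-fold and 1.60-fold), the plasmacytoid dendritic cell markers (1.27-fold and 1.88-fold), the other conventional dendritic cell markers (1.16-fold and 1.55-fold) and the mast cell and basophil markers (1.46 and 0.915 times the level of set 1). It lay near that of the 12 T cell markers (1.41-fold and 1.46-fold). Such sums follow their most abundant genes. Nr4a1 held 252 and 162 of the 409 and 265 CPM of the macrophage sum in set 1. In set 2 Nr4a1 stood at 0.542 and 0.464 times that level. In the same list C1qa was 8.87-fold and 15.6-fold higher in set 2, and Axl 1.74-fold and 2.83-fold. Ccr7, Dpp4 and Itgae held 249, 118 and 58.1 of 438 CPM of the conventional dendritic cell sum (CD4+Lrig1+, set 1). Kit held most of the mast cell and basophil sum. Each set holds 1 library of each group, so a difference between the sets and what set their preparation apart cannot be told apart, and no test of it was made.

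**Figure D4:**
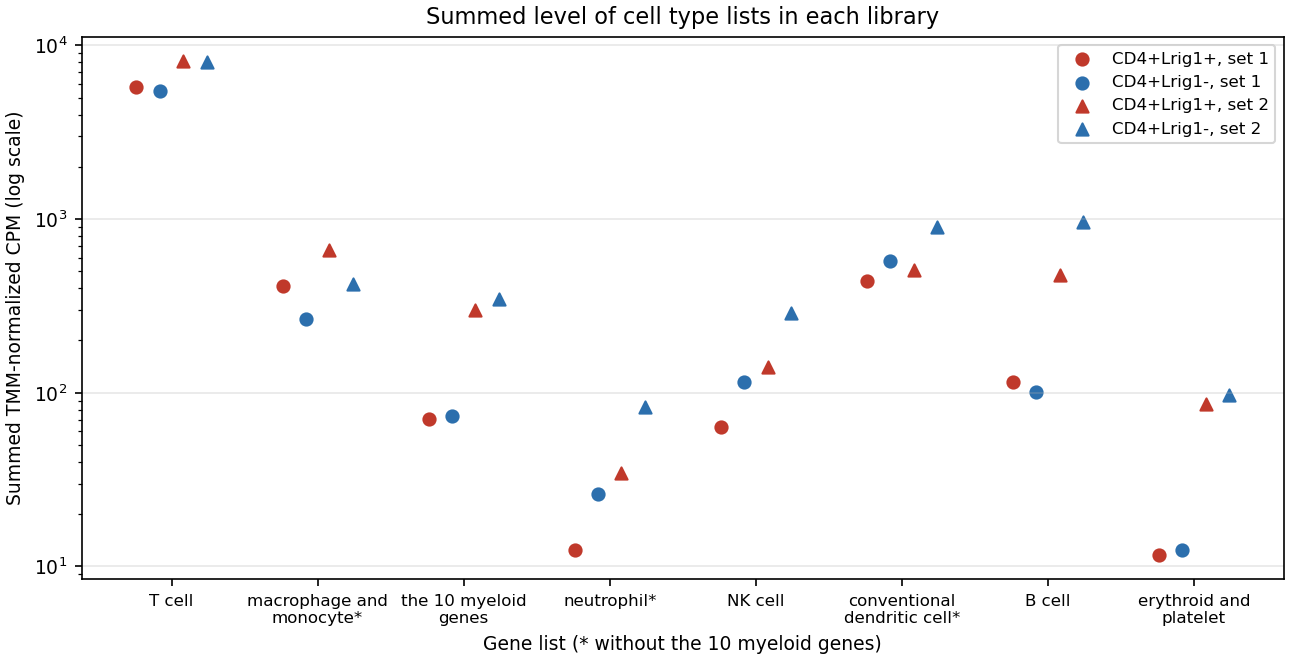
Summed normalized CPM (log axis) of 8 gene lists in the 4 libraries, with lists marked by an asterisk shown without the 10 myeloid genes. The myeloid, B cell and erythroid sums are several times higher in set 2 (triangles) than in set 1 (circles). In both sets the macrophage sum is higher in CD4+Lrig1+ (red) than in CD4+Lrig1- T cells (blue). The neutrophil and NK cell sums are lower. In set 1 Nr4a1 and Axl held 252 and 56.2 of 409 CPM of the macrophage sum (CD4+Lrig1+) and 162 and 7.06 of 265 (CD4+Lrig1-). Mmp9 alone held 2.35 of 12.5 CPM and 9.69 of 26.0 CPM of the neutrophil sum there.

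The B cell sum was lower in the CD4+Lrig1+ library of set 2 and not in that of set 1. Of its 14 genes, 10 were lower in both sets and 0 higher in both, with median log2 ratios of -0.09 and -1.13. With the block, 5 of the 14 were called lower and 0 higher. Of the erythroid and platelet list, none of the 8 tested genes was called by edgeR with or without the block or by DESeq2 without it (0 at an unadjusted p under 0.05 without the block). Of the mast cell and basophil list only Kit was tested, and Tpsb2 had 0 counts everywhere. Among 17 tested transcription factors of myeloid cells, 6 were called higher and 2 lower with the block. Cebpa, which drives the granulocyte and monocyte lineages, stood at 12.6 and 26.9 CPM in CD4+Lrig1+ against 1.40 and 2.50 in CD4+Lrig1- T cells (log2 fold change 3.31, edgeR's adjusted p = 1.35e-05 with the block), and Maf, a factor of macrophages and of T cells, at 127 and 78.1 against 39.2 and 19.3 CPM. Spi1, which encodes PU.1 and was chosen after its values were seen, stood at 2.04 and 7.52 against 6.08 and 13.1 CPM (-1.15, adjusted p = 0.00650).

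The genes whose profile lay nearest to the mean profile of the 10 myeloid genes, by the Euclidean distance of centred log2 CPM over the 4 libraries, were Rps16-ps2 (0.138), Rpl9-ps7 (0.158), LOC108168715 (0.185), Ifitm3 (0.190) and Gm8623 (0.209). Ifitm3, an antiviral membrane protein, stood at 1.92 and 2.32 CPM in set 1 and at 8.06 and 9.85 in set 2, and Rps16-ps2, named as a pseudogene of a ribosomal protein whose reads can be shared with its parent gene, at 16.1 and 18.9 and at 69.9 and 96.7 CPM. The mean profile is mainly the step between the sets.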

How the data were processed

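RNA of both groups of splenic T cells was extracted with a column kit, and stranded mRNA libraries were sequenced by the authors as paired-end reads. According to the submitters' processing notes, Trimmomatic 0.38, HISAT2 2.1.0, Bowtie2 2.3.4.1 and StringTie 2.1.3b were used, with the builds GRCm38 and mm10. The estimated counts per RefSeq transcript (129299 in all) were made by the authors and are whole numbers that are not normalized as deposited. The FPKM and TPM values were also deposited by the authors, scaled per library and transcript length. TPM was not used for any test. Strand use in the counting is not given in the sources used here.

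Columns were assigned by their names alone. 6 columns of per-sample values in a further table were not used, because their names do not give the group. The design was written for all 6 samples in the labels, and 4 libraries could be used. The study describes its quantitative data in general as biologically independent, but the labels tie no library to an animal or pool, so p-values measure the spread between these libraries.

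Estimated counts were summed per gene symbol with Python 3.11.15 and pandas 2.3.3. In R 4.3.3, edgeR 4.0.16 (filterByExpr, TMM, quasi-likelihood test of the group, 2 residual degrees of freedom) was run on all genes, at a Benjamini-Hochberg adjusted p under 0.05. Ratios within a set are ratios of TMM-normalized CPM with Clopper-Pearson intervals at 95%. Log2 ratios of lists used a prior count of 2. Alternatives were the table as a term (1 residual degree of freedom), DESeq2 1.42.0, limma 3.58.1 on log2 FPKM with pseudocounts of 1 and 0.1, other scalings and filters, and leaving out each library. DESeq2 and limma with the table as a term were added after seeing the data. The scripts were tested on simulated data.

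The members and lists were chosen with earlier results of these data known. Beside the members, the rule allowed from each list up to 4 genes with the highest mean FPKM and up to 4 with the largest mean log2 ratio at a mean count of at least 50, genes at 0 counts in every library, the 5 nearest profiles, and Lrig1, Foxp3 and Csf1. Genes named outside that rule are Cd4, Cd3e, Spi1 and the overlapping genes. Coordinates and promoters are RefSeq's on GRCm38.p6, and 45679 gene IDs matched its table.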

Additional observations from a re-analysis of the deposited data

How the results depend on the processing

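No paired analysis was possible because the columns carry no replicate numbers, as far as pairing by those numbers goes. Pairing by the table that holds a library was possible and is the table block. The number of genes called higher and lower was 0 and 0 without the table block, 2358 and 2056 with it, 260 and 50 by DESeq2's Wald test, and, with the block, 1848 and 1969 by DESeq2 and 1911 and 1016 by limma on log2(FPKM + 1). Leaving out each library in turn called 1 to 88 genes higher and 0 to 2 lower (5 and 0 or 88 and 2 with set 1 lacking its CD4+Lrig1+ or CD4+Lrig1- library, and 41 and 0 or 1 and 1 with set 2 lacking them) and no myeloid gene. The lone library of an arm is then assumed to vary like the other group. Myeloid genes were called only with the block, 1 higher and 4 lower by edgeR, 1 and 3 by DESeq2 and 1 and 1 by limma. The calls with the block could not be repeated without a library, since a set then compares nothing.

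The median log2 fold change of the 10 genes, -0.45, moved to -0.37 with library totals as the scale, to -0.26 and -0.32 by limma on log2(FPKM + 1) and log2(FPKM + 0.1), to -0.37 with the block and to -0.26 by limma with the block. It ran from -1.85 (set 2 lacking its CD4+Lrig1+ library) to 1.08 (set 2 lacking the other) as each library was left out, and was 0.36 and -1.15 with set 1 lacking its CD4+Lrig1+ or its CD4+Lrig1- library. The log2 ratio of the sum in set 1, -0.05, became -0.20 without Cst3, the most abundant gene. That of set 2, -0.21, became -0.11 with library totals, -0.37 as summed FPKM, -0.079 without S100a8 and S100a9 and -0.28 without Cst3. The median log2 ratio of all genes in set 2 was -0.076 with TMM and 0.026 with library totals, a shift of the scale itself. The cause of the other moves was not tested.

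With all 4 libraries, directions turned for Cd68, Lyz2 and Adgre1, which no test called. Cd68 (0.0051) became -0.0090 with DESeq2's size factors or Wald test, -0.035 with the block and -0.061 by DESeq2 with the block. Lyz2 (-0.41) became 0.013 and 0.035 by limma with a pseudocount of 1 and 0.1, and 0.013 by limma with the block (pseudocount of 1). Adgre1 (0.24) became -0.099 by limma with a pseudocount of 0.1, -0.093 with the block and -0.18 by DESeq2 with it. With a library left out, the log2 fold change of Itgam stayed between -1.68 and -1.20, and the others crossed 0, between -1.56 and 1.05 for Adgre1, -0.52 and 0.42 for Cd68, -0.55 and 2.64 for Csf1r, -1.05 and 1.31 for Cst3, -2.15 and 0.64 for Fcer1g, -2.29 and 2.37 for Lyz2, -3.87 and 2.31 for S100a8, -2.75 and 1.72 for S100a9, and -3.69 and 0.52 for Tyrobp.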
